A study of Mus musculus with 9 samples.

Results

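The genes described here are the 32 genes of pyruvate entry into mitochondria and of the TCA cycle, chosen by function from a list proposed with earlier results of these data known, out of 52636 genes counted. All 32 were found in the table by symbol and all 32 passed the expression filter. They comprise the pyruvate carrier (*Mpc1*, *Mpc2*), the pyruvate dehydrogenase complex with its kinases and phosphatases, pyruvate carboxylase, enzymes of the cycle from citrate synthase to malate dehydrogenase and the malic enzymes. The study compared the left ventricle of 16-week-old C57BL6J mice with and without a cardiac deletion of *Vdac2*, a porin gene of the outer mitochondrial membrane, by sequencing of total RNA after removal of ribosomal RNA. Of the 9 libraries, 5 are labelled VDAC2 WT (libraries 1 to 5) and 4 VDAC2 KO (libraries 6 to 9). By the study's description, the knockout carries *Vdac2* flox/flox with an αMHC-Cre transgene for a deletion in ventricular myocytes. WT are littermates with either flox or Cre. The αMHC promoter is active in cardiac myocytes, so fibroblasts, vessels and immune cells of the ventricle are taken here to keep the gene. Mice of both sexes were used. Each library is taken as 1 sample. The labels do not say that each came from a separate animal, and where they did not, p-values measure technical spread alone.

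Pyruvate, the end product of glycolysis, enters the mitochondrial matrix through a carrier made of MPC1 and MPC2. The pyruvate dehydrogenase complex then converts it to acetyl-CoA, under the control of kinases that switch the complex off by phosphorylating its E1 alpha subunit and phosphatases that switch it on again. Citrate synthase joins acetyl-CoA to oxaloacetate, and the TCA cycle oxidises the product to supply NADH to the respiratory chain. In the adult heart most acetyl-CoA comes from fatty acids, and PDK4 is the kinase best known for restraining glucose oxidation there.

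The libraries held 27345052 to 44673988 counts. Levels are given in CPM, counts scaled to the library size after TMM normalization. A level of 3 counts, taken as the lowest that can be read, came to 0.0693 to 0.114 CPM, a limit from counting error alone. *Vdac2* (ENSMUSG00000021771, chromosome 14 of GRCm38, 21825238 to 21845879) does not follow the labels. Libraries 1 to 5 held 20.2, 366, 58.5, 365 and 21.3 CPM of it, and libraries 6 to 9 held 384, 20.5, 421 and 19.1 CPM (log2 fold change 0.35, standard error 1.19, adjusted p = 0.92 in edgeR's quasi-likelihood test). It is thus low in libraries 1 and 5 labelled WT, between the low and the high levels in library 3, and high in libraries 6 and 8 labelled KO. The groups are therefore called "labelled WT" and "labelled KO", and every mean and test is between the labels. The proposal of these genes came with a split of 8 libraries, selected on *Vdac2* CPM, with libraries 1, 5, 7 and 9 under 100 CPM, libraries 2, 4, 6 and 8 over 300 CPM, and library 3 shown apart. Those sets were formed from a measured value and not from a label, so they serve here only to read the level of each library beside its *Vdac2*, as a description with no mean, fold change or test. All libraries labelled WT held at most 0.152 CPM of *Xist*, the RNA of the inactive X chromosome, and all labelled KO at least 335 CPM. The labels also coincide with the lane number that the sample descriptions give for each library, so label, lane and sex cannot be told apart.

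Library 3, labelled WT, stood apart from the rest. The study's reporting summary says that a WT sample was left out for poor RNA quality and does not name it. Mitochondrially encoded genes took 9.07% of the counts of library 3 and 16.8% to 19.2% of those of the other 8 libraries. The summed level of 10 cardiomyocyte markers (among them *Myh6*, *Tnnt2* and *Myl2*) was 15421 CPM in library 3 and 54706 to 75208 CPM in the others, and all 10 were lowest in library 3. The 7 fibroblast markers summed to 5367 CPM there against 968 to 1463 CPM. Of these 7, 5 were highest in library 3, led by *Postn* at 2508 CPM and *Col1a2* at 1412 CPM, while *Lum* lay within the range of the others and *Dcn* was lowest there, at 454 CPM against 560.5 to 935 CPM. The 6 macrophage and leukocyte markers summed to 603 CPM against 143 to 294 CPM, with 5 of the 6 highest in library 3. The endothelial sum was 336 CPM in library 3 against 446 to 692 CPM, and the mural sum 878 against 1168 to 1405 CPM. The mural list went both ways, with *Rgs5* and *Myh11* lowest in library 3, *Tagln* and *Pdgfrb* highest and *Acta2* within the range of the others. In bulk tissue, fewer cells of a type and less RNA per cell cannot be told apart. The 5 atrial markers summed to 13.0 CPM in library 3 and 6.97 to 9.83 CPM in the others, mostly from *Nr2f2*, with *Myl4* at 1.59 to 2.99 CPM, *Myl7* at most 1.13 CPM and *Sln* without a count in 4 libraries. The 6 adipocyte markers summed to 9.87 and 18.8 to 27.4 CPM, nearly all from *Cidea*, while *Adipoq* was at most 0.369 CPM and *Ucp1* and *Lep* each had no count in 6 libraries. The 4 erythroid markers summed to 1947 CPM in library 2, 1298 CPM in library 1 and 561 to 965 CPM in the other 7. None of the tested markers of these lists had an adjusted p under 0.05 between the labels.

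RefSeq promoter windows (GRCm38.p6) were matched for 29 of the 32. Those of *Pdp2*, *Idh2*, *Pdk4* and *Pdk3* are shown because these genes differ most in how they run across the libraries. *Pdp2* kept libraries 2, 4, 6 and 8 as its highest after division by cardiomyocyte markers. Over all 9 libraries, *Idh2* and *Pdk4* have the largest spread besides *Pdp2*. *Pdk3* has the reverse order, with libraries 2, 4, 6 and 8 the lowest, as in 5.98% of the genes tested. Library 3 is its highest, as in 37.7% of the genes tested. Each window holds 250 bases before the start site and 50 after it, 5′ to 3′ on the strand of the gene. Capitals mark the CCAAT box, read on both strands as CCAAT or ATTGG. The windows are chr8:104591222-104591521, plus strand (*Pdp2*), chr7:80115301-80115600, minus strand (*Idh2*), chr6:5496229-5496528, minus strand (*Pdk4*) and chrX:93832101-93832400, minus strand (*Pdk3*).
Pdp2 promoter: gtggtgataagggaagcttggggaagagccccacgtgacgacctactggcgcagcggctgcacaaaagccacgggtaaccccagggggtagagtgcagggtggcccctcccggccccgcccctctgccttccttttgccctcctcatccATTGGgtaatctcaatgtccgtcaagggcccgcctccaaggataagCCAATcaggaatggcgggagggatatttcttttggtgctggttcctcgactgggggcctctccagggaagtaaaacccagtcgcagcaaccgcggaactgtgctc
Idh2 promoter: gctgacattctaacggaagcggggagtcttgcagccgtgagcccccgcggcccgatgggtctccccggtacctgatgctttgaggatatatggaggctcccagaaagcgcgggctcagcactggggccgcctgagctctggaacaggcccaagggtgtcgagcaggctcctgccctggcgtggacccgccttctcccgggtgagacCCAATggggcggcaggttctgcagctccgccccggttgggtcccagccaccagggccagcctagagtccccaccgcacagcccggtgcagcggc
Pdk4 promoter: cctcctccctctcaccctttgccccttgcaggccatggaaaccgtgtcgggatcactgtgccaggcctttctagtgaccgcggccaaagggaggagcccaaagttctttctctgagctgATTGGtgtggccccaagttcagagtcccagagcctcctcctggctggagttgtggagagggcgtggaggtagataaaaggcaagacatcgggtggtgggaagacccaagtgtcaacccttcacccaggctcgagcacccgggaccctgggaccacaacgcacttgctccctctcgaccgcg
Pdk3 promoter: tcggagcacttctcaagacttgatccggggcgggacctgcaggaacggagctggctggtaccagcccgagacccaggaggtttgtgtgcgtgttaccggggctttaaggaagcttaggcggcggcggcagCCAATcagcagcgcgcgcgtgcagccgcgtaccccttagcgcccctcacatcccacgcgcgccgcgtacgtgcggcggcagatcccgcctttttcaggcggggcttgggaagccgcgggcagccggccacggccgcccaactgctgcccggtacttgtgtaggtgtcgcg

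The *Pdp2* window holds CCAAT boxes that begin 101 and 55 bases before the start site, on opposite strands. In *Idh2* the box begins 44 bases before the start site, in *Pdk3* 120 and in *Pdk4* 131. Over the 40 RefSeq promoter windows of the 29 matched genes, 25 (62.5%) held a CCAAT box, against 37.4% of 32851 promoter windows of all genes. A match to TNAAGGTCA, the element bound by the estrogen-related receptors that regulate mitochondrial genes, was in 0 of the 40 windows and in 1.28% of all windows. TGATGNAAN, an amino acid response element, was in 1 of the 40, that of *Me3*, and in 3.95% of all windows. Such matches describe letters in these windows and say nothing of whether a factor binds there. Several genes have more than 1 window, and the windows of a gene can overlap.

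Levels were compared between genes per kilobase of annotated exon, as the median over the 9 libraries. *Mdh1*, the cytosolic malate dehydrogenase, stood highest at 848 CPM per kilobase, then *Idh2*, the mitochondrial NADP-dependent isocitrate dehydrogenase, at 686 and *Pdha1*, the E1 alpha subunit of pyruvate dehydrogenase, at 395. The mitochondrial isoform *Mdh2* was at 128 CPM per kilobase, and the cytosolic *Idh1* at 30.8. Of the alternative beta subunits of succinyl-CoA ligase, the ATP-forming *Sucla2* was at 169.7 CPM per kilobase and the GTP-forming *Suclg2* at 18.5. Among the kinases, *Pdk4* led at 144 CPM per kilobase, followed by *Pdk1* at 35.4, *Pdk2* at 23.2 and *Pdk3* at 1.37, the lowest of all 32 genes. Pyruvate carboxylase (*Pcx*) was at 5.77 CPM per kilobase. The exon length joins all annotated transcripts, so a gene with long alternative exons such as *Me3* is set too low.

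**Figure D1:**
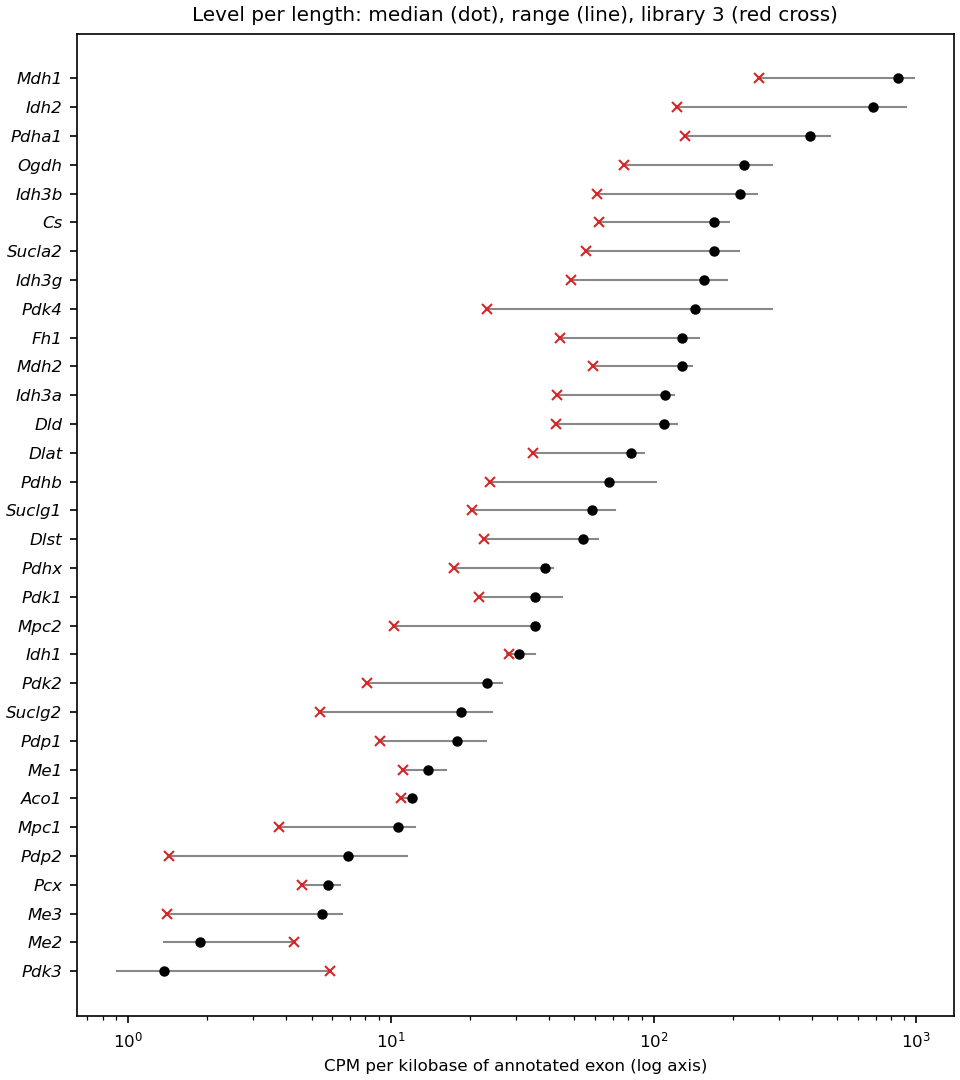
Level of each of the 32 genes in CPM per kilobase of annotated exon on a log axis, with the median of the 9 libraries as a dot, their range as a line and library 3 as a red cross. *Mdh1* stood highest at 848 and *Pdk3* lowest at 1.37, and the red cross marks the low end of the range in 29 genes.

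Across the libraries the clearest feature was library 3. It held the lowest level in 29 of the 32 genes, against 37.4% of the 16322 genes tested, and the highest level in 2, *Pdk3* and *Me2*, against 37.7% of the genes tested. *Idh1* was the remaining gene and was lowest in library 6. Beside its low level of these genes stand its low cardiomyocyte and endothelial sums, its mixed mural markers and its high fibroblast and immune sums given above, whose part in the result was not tested. Relative to the median of the other 8 libraries, library 3 ranged from 0.145 in *Pdk4*, 0.177 in *Idh2* and 0.184 in *Pdp2* to 0.912 in *Aco1*, 2.38 in *Me2* and 4.39 in *Pdk3*. The cardiomyocyte marker sum had the ratio 0.241. When each gene was divided by that sum in its library, library 3 was lowest in 2 genes, *Pdk4* and *Idh2*, and in 3.28% of the genes tested, since the division raises every gene of library 3 alike and made it the highest in 91.2% of the genes tested. The same division put *Vdac2* at 3.79 per 1000 CPM of markers in library 3, against 0.303 to 0.369 in libraries 1, 5, 7 and 9 and 5.11 to 5.88 in libraries 2, 4, 6 and 8. *Pdk4*, *Idh2* and *Pdp2* were then the genes below the median of the other 8 libraries in library 3, at ratios of 0.662, 0.751 and 0.762, and the other 29 were above it.

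**Figure D2:**
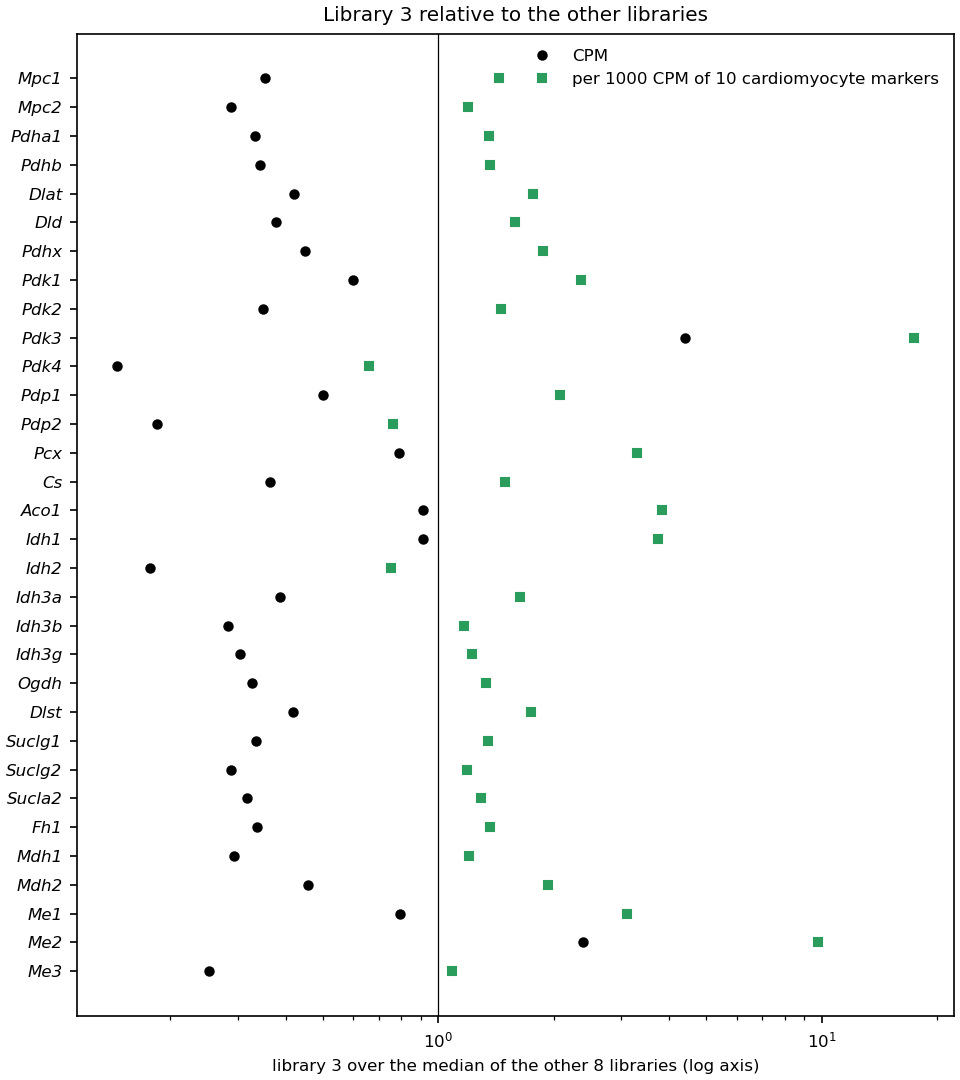
Level of each gene in library 3 divided by the median of the other 8 libraries, on a log axis, from CPM (black dots) and from CPM per 1000 CPM of 10 cardiomyocyte markers (green squares), with a line at 1. In CPM 30 genes lay below 1, and after division by the markers *Pdk4*, *Pdp2* and *Idh2* did.

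The other 8 libraries lay much closer together. Their highest level was 1.11 to 2.38 times their lowest, with *Aco1* at the low end and *Pdk4* at the high end. In 9 of the 32 genes the 4 highest libraries were 2, 4, 6 and 8, as in 4.41% of the genes tested. These libraries are also the 4 highest in *Vdac2*, though their order among themselves can differ. The 9 genes were *Dld*, *Pdp2*, *Idh2*, *Idh3b*, *Ogdh*, *Dlst*, *Suclg1*, *Suclg2* and *Me3*. The gap to the next library could be small, as in *Idh3b*, at 743 CPM in library 2 and 733 CPM in library 9. In 2 of the 32, *Pdk3* and *Me2*, libraries 2, 4, 6 and 8 were the lowest, as in 5.98% of the genes tested. The next most frequent set of highest libraries was 4, 6, 8 and 9, in 6 genes (*Pdhb*, *Dlat*, *Pdhx*, *Idh3g*, *Fh1* and *Mdh1*) and 1.99% of the genes tested. This second set was read off after the values were seen. The cardiomyocyte marker sum was likewise highest in libraries 2, 4, 6 and 8, at 65026, 65088, 75208 and 71689.6 CPM. In libraries 1, 5, 7 and 9 it was 54706, 57765, 61990.2 and 62989 CPM. Among the single cardiomyocyte markers, *Actn2* and *Myl3* had these 4 highest libraries and the others did not. *Tnnt2* was highest in library 9, at 5136 CPM. *Ryr2* was lower in library 8, at 4891 CPM, than in library 5, at 4963 CPM. The macrophage and leukocyte sum was lowest in libraries 2, 4, 6 and 8, at 196, 207, 143 and 158 CPM. In libraries 1, 5, 7 and 9 it was 258, 294, 222 and 219 CPM. *Ptprc*, *Cd68* and *Adgre1* followed this order, and *Csf1r*, *C1qa* and *Cd3e* did not. The fibroblast sum was also lowest in libraries 2, 4, 6 and 8, at 1168, 1245, 969.7 and 968 CPM. In libraries 1, 5, 7 and 9 it was 1454, 1434, 1432 and 1463 CPM. Its list was mixed, since *Col1a2*, *Postn* and *Tcf21* followed this order and *Col1a1*, *Pdgfra*, *Dcn* and *Lum* did not. *Dcn* was at 737 CPM in library 9 and 764 CPM in library 7, below 774 CPM in library 2 and 819 CPM in library 4. The part of these cell type markers in the order of the 9 genes was not tested. After division by the cardiomyocyte sum, 1 gene, *Pdp2*, still had libraries 2, 4, 6 and 8 as its highest, as did 0.331% of the genes tested. The divisor is itself highest in libraries 2, 4, 6 and 8, and the division made library 3 the highest in 91.2% of the genes tested. This scaling moves all genes of a library alike, so the drop to 1 gene cannot be read as a result about these genes.

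**Figure D3:**
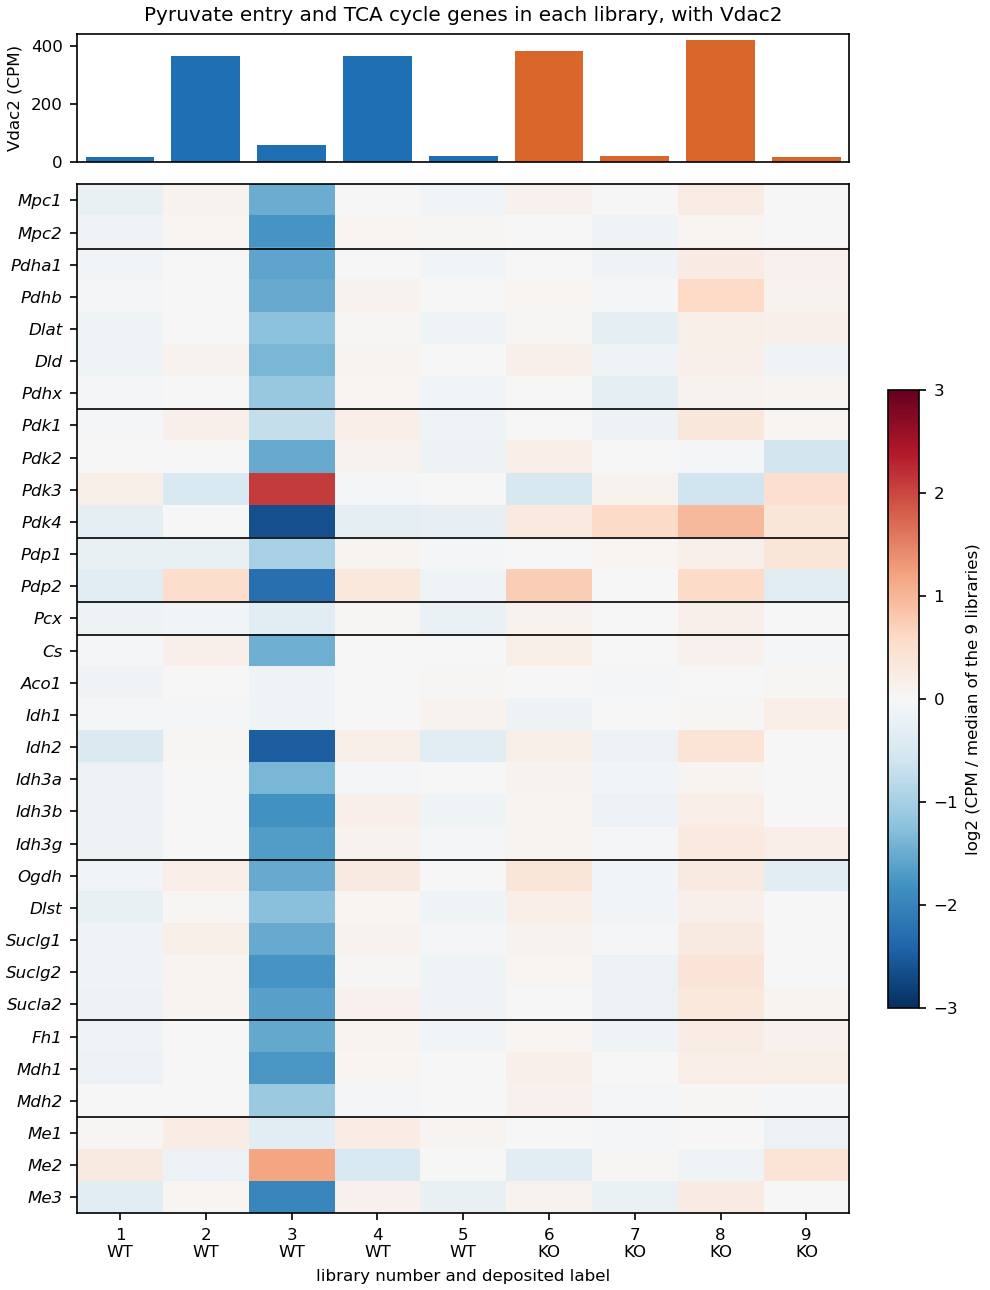
Upper panel, *Vdac2* in CPM in each library (blue labelled WT, orange labelled KO), and lower panel, log2 of the CPM of each gene over its median of the 9 libraries (blue below, red above), with lines between the groups of genes. Library 3 is lowest in 29 of the 32 genes and highest in *Pdk3* and *Me2*, while *Vdac2* is high in libraries 2, 4, 6 and 8.

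Between the labels, 0 of the 32 genes passed an adjusted p of 0.05 in the edgeR test, against 0.0551% of the 16322 genes tested. At an unadjusted p under 0.05 there were 2, *Pdk4* and *Pcx*, against 6.11% of the genes tested. DESeq2 gave 0 of the 32, among which *Pdk3* had no adjusted value, against 0.443% of the genes with an adjusted value. The estimate was higher in the libraries labelled KO in 29 of the 32 genes, against 47.3% of the genes tested, with a median log2 fold change of 0.26 against -0.018 over all genes tested. This median rested on library 3. Without it, the median was 0.073 against 0.0030 over all genes tested, 27 genes had a higher estimate (50.6% of the genes tested), 0 had an adjusted p under 0.05 (0.382% of 16251 genes tested) and 4 had an unadjusted p under 0.05 (11.8%). With all 9 libraries, the labelled groups did not overlap in 1 gene, *Pdk4*, against 4.36% of the genes tested. Without library 3 they did not overlap in *Me1* either, at 54.8 to 62.6 CPM labelled WT and 46.8 to 53.3 CPM labelled KO. The share of all genes without overlap was not counted for the libraries without library 3.

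**Figure D4:**
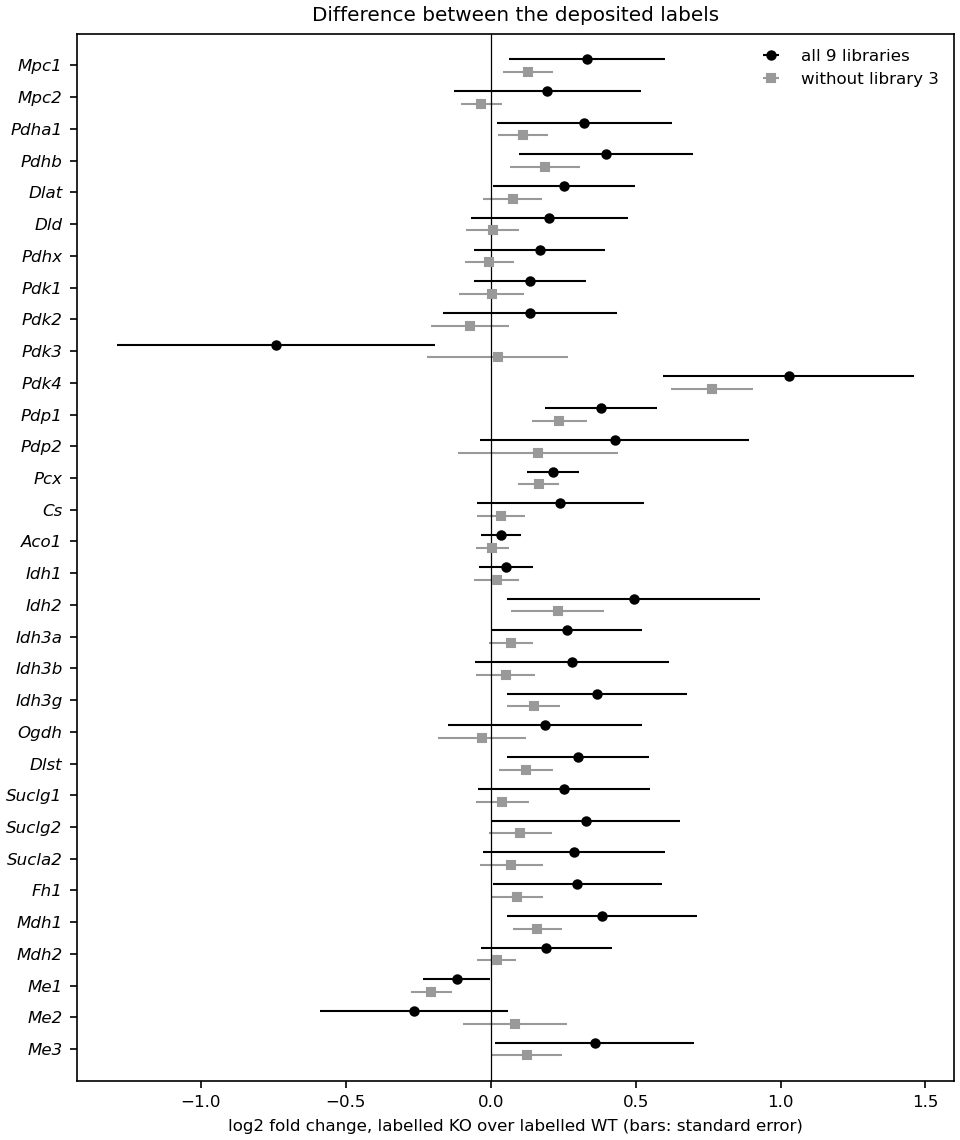
Log2 fold change of each gene, labelled KO over labelled WT, from edgeR's quasi-likelihood fit, with bars of 1 standard error, from all 9 libraries (black) and without library 3 (grey). The estimates lie above 0 in 29 genes with all libraries, have a median that drops from 0.26 to 0.073 without library 3, and stay farthest from 0 in *Pdk4*.

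The carrier subunits *Mpc1* and *Mpc2* are both needed for pyruvate to cross the inner membrane. *Mpc1* (ENSMUSG00000023861, chromosome 17, 8282904 to 8297661) stood at 19.0, 23.7, 7.85, 22.1 and 20.9 CPM across libraries 1 to 5 and 24.3, 22.3, 25.7 and 21.8 CPM across libraries 6 to 9 (log2 fold change 0.33, standard error 0.27, adjusted p = 0.70 in edgeR's quasi-likelihood test, log2 fold change 0.13 without library 3). *Mpc2* (ENSMUSG00000026568, chromosome 1, 165460637 to 165481214) stood at 239.8, 271, 75.4, 268 and 265 CPM across libraries 1 to 5 and 259, 239, 270.2 and 257 CPM across libraries 6 to 9 (log2 fold change 0.20, standard error 0.32, adjusted p = 0.83, log2 fold change -0.033 without library 3). Outside library 3, *Mpc2* lay within a ratio of 1.13 from its lowest to its highest library, and the labels overlapped in both genes.

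Of the pyruvate dehydrogenase complex, *Pdha1* encodes the E1 alpha subunit that the kinases phosphorylate. *Pdha1* (ENSMUSG00000031299, chromosome X, 160122209 to 160138413) had 1388, 1482, 491, 1475 and 1405 CPM across libraries 1 to 5 and 1495, 1379.7, 1749.9 and 1623 CPM across libraries 6 to 9 (log2 fold change 0.32, standard error 0.30, log2 fold change 0.11 without library 3). *Pdhb* (ENSMUSG00000021748, chromosome 14, 8165996 to 8173025), its E1 beta partner, had 249.9, 260.2, 91.8, 281 and 262 CPM across libraries 1 to 5 and 274, 257, 393 and 279.6 CPM across libraries 6 to 9 (log2 fold change 0.40, standard error 0.30, log2 fold change 0.19 without library 3). Library 8 was the highest in both, and in *Pdhb* it stood clear of the 249.9 to 281 CPM of the other libraries besides library 3. *Pdhx* (ENSMUSG00000010914, chromosome 2, 103021075 to 103073513), the protein that holds E3 on the complex, had the smallest spread of this group with library 3 included. It was at 148, 152, 68.6, 157 and 144 CPM across libraries 1 to 5 and 153, 127, 162 and 159 CPM across libraries 6 to 9 (log2 fold change 0.17, standard error 0.23, log2 fold change -0.0045 without library 3). Outside library 3 the smallest ratio of highest to lowest library was that of *Dld*, at 1.22, with *Pdhx* at 1.28. The E2 gene *Dlat* was at 171 CPM in library 3 and 328 to 448 CPM in the others, and the E3 gene *Dld* at 157 and 371 to 451 CPM. None of the 5 had an adjusted p under 0.69, and the labels overlapped in each.

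The kinases diverged from each other. *Pdk4* (ENSMUSG00000019577, chromosome 6, 5483351 to 5496309) was at 417, 507, 81.6, 421 and 424 CPM across libraries 1 to 5 and 617, 759, 992 and 649 CPM across libraries 6 to 9. Every library labelled KO was above every library labelled WT. Within the KO label the order was 8, 7, 9 and 6, so the libraries with high *Vdac2*, 6 and 8, were the lowest and the highest. There was a mean of 370.1 ± 166 CPM (SD, n = 5) under the WT label and 754 ± 169.8 CPM (SD, n = 4) under the KO label, a log2 difference of 1.03 with standard error 0.43 and adjusted p = 0.68 in the edgeR test. Without library 3 it was 0.76 (standard error 0.14, adjusted p = 0.057), which did not pass 0.05. The promoter of *Pdk4* printed above holds a single CCAAT box, on the opposite strand.

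*Pdk3*, an X-linked kinase gene (ENSMUSG00000035232, chromosome X, 93764607 to 93832201), was the reverse of the group, with 3.97, 2.56, 15.0, 3.35 and 3.51 CPM across libraries 1 to 5 and 2.52, 3.80, 2.32 and 4.99 CPM across libraries 6 to 9, from 70 to 558 counts. Library 3 was the highest, as in 37.7% of the genes tested, and library 9 the next. Libraries 2, 4, 6 and 8 were the lowest, as in 5.98% of the genes tested. The label estimate of *Pdk3* (log2 fold change -0.74, standard error 0.55) turned to 0.024 without library 3. *Pdk1* (ENSMUSG00000006494, chromosome 2, 71873224 to 71903858), a kinase known for its induction in hypoxia, had the smallest spread of the kinases, with 271, 309, 168, 318 and 250.0 CPM across libraries 1 to 5 and 275, 249, 347 and 285 CPM across libraries 6 to 9 (log2 fold change 0.14, standard error 0.19, log2 fold change 0.0032 without library 3). *Pdk2* was at 25.6 CPM in library 3, 50.4 CPM in library 9 and 66.6 to 83.7 CPM in the rest. *Pdk3* and *Me2*, and the values of *Pdk2*, were taken up after their values were seen.

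**Figure D5:**
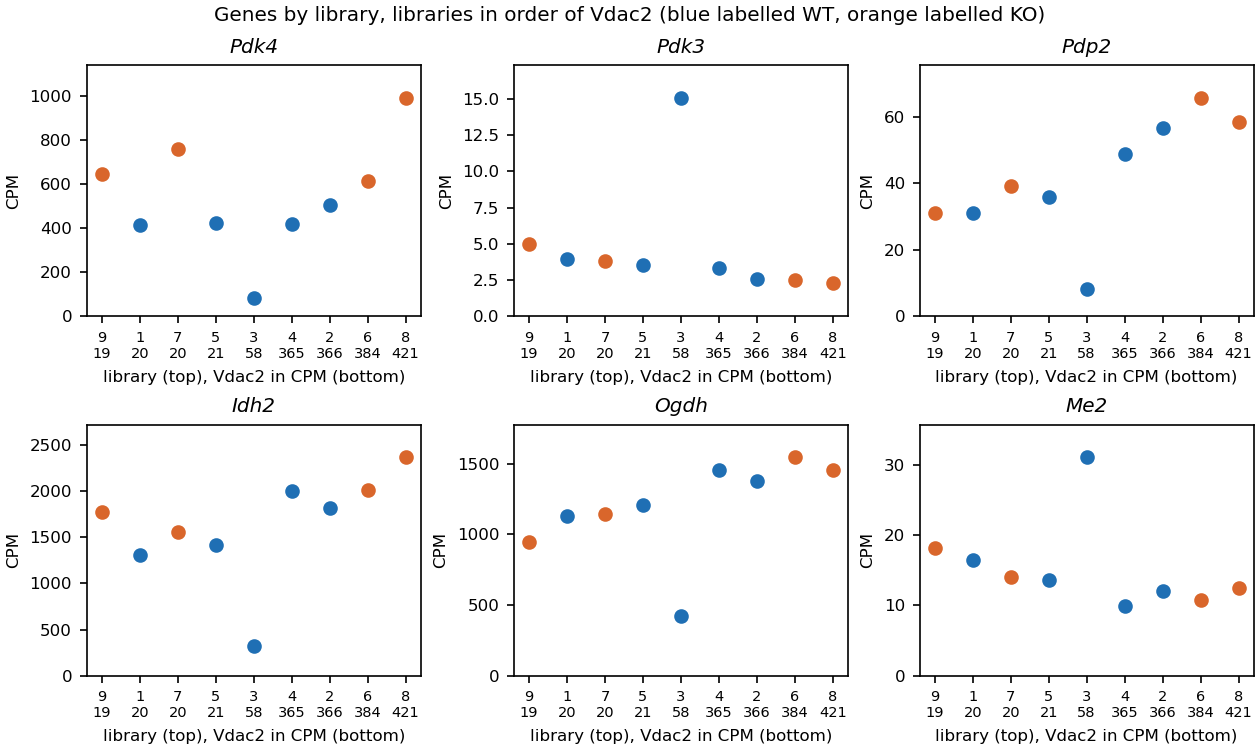
CPM of *Pdk4*, *Pdk3*, *Pdp2*, *Idh2*, *Ogdh* and *Me2* in each of the 9 libraries, ordered along the x axis by the CPM of *Vdac2* printed under each library number, with 1 point per library, blue labelled WT and orange labelled KO. *Pdp2* and *Ogdh* are highest in libraries 2, 4, 6 and 8, at the right, *Pdk3* and *Me2* are highest in library 3, and *Pdk4* is higher in every orange point than in any blue point.

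The phosphatase catalytic subunits *Pdp1* and *Pdp2* remove the phosphates that the kinases add. *Pdp2* (ENSMUSG00000048371, chromosome 8, 104591451 to 104599026) was at 31.2, 56.5, 8.12, 48.9 and 35.8 CPM across libraries 1 to 5 and 65.6, 39.1, 58.4 and 31.0 CPM across libraries 6 to 9 (log2 fold change 0.43, standard error 0.47, adjusted p = 0.75, log2 fold change 0.16 without library 3). Its promoter, with a CCAAT box on each strand, is printed above. Libraries 2, 4, 6 and 8 held 48.9 CPM or more and each of the other 5 held 39.1 CPM or less. Per 1000 CPM of cardiomyocyte markers, *Pdp2* was at 0.869, 0.751, 0.872 and 0.815 in libraries 2, 4, 6 and 8, at 0.570, 0.621, 0.631 and 0.493 in libraries 1, 5, 7 and 9 and at 0.526 in library 3. *Pdp1* (ENSMUSG00000049225, chromosome 4, 11958184 to 11966452) did not share this order, with 69.1, 69.3, 41.0, 84.6 and 78.7 CPM across libraries 1 to 5 and 80.4, 83.6, 88.9 and 104 CPM across libraries 6 to 9 (log2 fold change 0.38, standard error 0.19, adjusted p = 0.68, log2 fold change 0.24 without library 3). It was highest in library 9, whose *Vdac2* was the lowest.

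Pyruvate carboxylase, which makes oxaloacetate from pyruvate and so refills the cycle, was close in library 3 to its level elsewhere. *Pcx* (ENSMUSG00000024892, chromosome 19, 4510472 to 4621752) was at 24.6, 25.8, 21.9, 28.1 and 23.8 CPM across libraries 1 to 5 and 29.4, 27.8, 30.6 and 27.4 CPM across libraries 6 to 9, with a mean of 24.8 ± 2.31 CPM (SD, n = 5) under the WT label and 28.8 ± 1.44 CPM (SD, n = 4) under the KO label (log2 fold change 0.21, standard error 0.089, adjusted p = 0.68, unadjusted p = 0.038). Library 3 was the lowest but within 1.40 times of the highest. Without library 3 the log2 fold change was 0.16 (adjusted p = 0.41).

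From citrate to 2-oxoglutarate, library 3 was far lower than the others in the genes of mitochondrial enzymes and close to them in those of cytosolic enzymes. *Idh2* (ENSMUSG00000030541, chromosome 7, 80094846 to 80115392), which makes mitochondrial NADPH, had the largest spread of this group, with 1309, 1818, 317, 2005 and 1412 CPM across libraries 1 to 5 and 2019, 1562, 2369.8 and 1775 CPM across libraries 6 to 9 (log2 fold change 0.49, standard error 0.44, adjusted p = 0.71, log2 fold change 0.23 without library 3). Library 8 was the highest, and libraries 2, 4 and 6 came next. By contrast *Aco1* (ENSMUSG00000028405, chromosome 4, 40143081 to 40198338), the cytosolic aconitase that doubles as an iron-responsive RNA-binding protein, had the smallest spread of all 32 genes, with 50.2, 54.2, 49.3, 53.9 and 55.4 CPM across libraries 1 to 5 and 54.7, 51.6, 54.0 and 55.3 CPM across libraries 6 to 9 (log2 fold change 0.035, standard error 0.070, adjusted p = 0.86, log2 fold change 0.0057 without library 3). The cytosolic *Idh1* (ENSMUSG00000025950, chromosome 1, 65158616 to 65186500) had 81.4, 82.7, 78.1, 86.2 and 91.4 CPM across libraries 1 to 5 and 76.8, 85.4, 87.5 and 98.5 CPM across libraries 6 to 9 (log2 fold change 0.052, standard error 0.092, log2 fold change 0.020 without library 3). Library 3 lay within its range. Outside this step, the levels in library 3 did not divide by compartment in this way. The cytosolic *Mdh1* was there at 0.293 of the median of the other 8 libraries, and its matrix counterpart *Mdh2* at 0.458. The mitochondrial *Me2* was at 2.38. Citrate synthase (*Cs*, ENSMUSG00000005683, chromosome 10, 128337734 to 128362479), often used as a measure of mitochondrial content, had 960.2, 1085, 359, 982 and 972 CPM across libraries 1 to 5 and 1118, 992, 1069 and 939 CPM across libraries 6 to 9 (log2 fold change 0.24, standard error 0.29, log2 fold change 0.035 without library 3). Library 3 was far below the rest, and the labels overlapped. The subunit genes of the NAD-dependent enzyme were at 218 against 498 to 605 CPM (*Idh3a*), 209 against 646 to 845 CPM (*Idh3b*) and 131 against 381 to 514 CPM (the X-linked *Idh3g*).

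From 2-oxoglutarate to succinate, 4 of the 5 genes had libraries 2, 4, 6 and 8 as their highest. *Ogdh* (ENSMUSG00000020456, chromosome 11, 6291633 to 6356642), the E1 subunit of the 2-oxoglutarate dehydrogenase complex, had 1130.3, 1378, 423, 1452 and 1204 CPM across libraries 1 to 5 and 1545, 1141, 1452 and 946 CPM across libraries 6 to 9 (log2 fold change 0.19, standard error 0.33, adjusted p = 0.84, log2 fold change -0.030 without library 3). Library 9 was the lowest besides library 3. *Dlst* (ENSMUSG00000004789, chromosome 12, 85110833 to 85134845), the E2 subunit, had 438, 525, 216, 536 and 471 CPM across libraries 1 to 5 and 587, 482, 570.2 and 513 CPM across libraries 6 to 9 (log2 fold change 0.30, standard error 0.24, log2 fold change 0.12 without library 3). *Suclg2* (ENSMUSG00000061838, chromosome 6, 95473009 to 95718800) had 78.9, 90.2, 24.9, 87.9 and 78.2 CPM across libraries 1 to 5 and 88.7, 75.4, 112 and 85.6 CPM across libraries 6 to 9 (log2 fold change 0.33, standard error 0.32, log2 fold change 0.10 without library 3). The alpha subunit gene *Suclg1* was at 94.0 CPM in library 3 and 252 to 328 CPM in the others. *Sucla2* (ENSMUSG00000022110, chromosome 14, 73525319 to 73596142) was the exception to this order, with 611, 712, 221, 741 and 625 CPM across libraries 1 to 5 and 677, 602, 845 and 717 CPM across libraries 6 to 9 (log2 fold change 0.29, standard error 0.31, adjusted p = 0.75, log2 fold change 0.071 without library 3). Its highest libraries were 8, 4, 9 and 2.

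From fumarate to oxaloacetate, fumarase (*Fh1*) was at 149.8 CPM in library 3 and 397 to 506 CPM in the others. *Mdh1* (ENSMUSG00000020321, chromosome 11, 21556787 to 21572367), an enzyme of the malate-aspartate shuttle, had 1932, 2178, 649, 2258 and 2172 CPM across libraries 1 to 5 and 2439, 2158, 2513 and 2478 CPM across libraries 6 to 9 (log2 fold change 0.38, standard error 0.33, adjusted p = 0.71, log2 fold change 0.16 without library 3). *Mdh2* (ENSMUSG00000019179, chromosome 5, 135778480 to 135790398), its counterpart in the matrix, had 464, 457, 210.3, 444 and 460.5 CPM across libraries 1 to 5 and 498, 447, 467 and 447 CPM across libraries 6 to 9 (log2 fold change 0.19, standard error 0.23, adjusted p = 0.77, log2 fold change 0.021 without library 3). Outside library 3 the levels of *Mdh2* lay within a ratio of 1.12, with library 6 the highest, and those of *Mdh1* within 1.30, with library 8 the highest. Neither gene had libraries 2, 4, 6 and 8 as its highest.

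The malic enzymes, which convert malate to pyruvate, differed in their order across the libraries. *Me3* (ENSMUSG00000030621, chromosome 7, 89632392 to 89854359), a mitochondrial NADP-dependent form, was at 63.0, 83.5, 20.6, 87.1 and 68.7 CPM across libraries 1 to 5 and 86.3, 69.9, 95.0 and 80.1 CPM across libraries 6 to 9 (log2 fold change 0.36, standard error 0.34, log2 fold change 0.12 without library 3), with libraries 2, 4, 6 and 8 the highest. *Me1* (ENSMUSG00000032418, chromosome 9, 86581371 to 86695953), the cytosolic form, was at 54.8, 61.9, 42.9, 62.6 and 56.0 CPM across libraries 1 to 5 and 52.9, 52.1, 53.3 and 46.8 CPM across libraries 6 to 9 (log2 fold change -0.12, standard error 0.12). Without library 3 the log2 difference in *Me1* came to -0.21 with standard error 0.071 (adjusted p = 0.30 in the edgeR test). *Me2* (ENSMUSG00000024556, chromosome 18, 73769903 to 73815449), the other mitochondrial form, was at 16.4, 12.0, 31.1, 9.93 and 13.6 CPM across libraries 1 to 5 and 10.8, 14.1, 12.5 and 18.1 CPM across libraries 6 to 9. Library 3 was the highest, as in 37.7% of the genes tested, and library 9 the next. Libraries 2, 4, 6 and 8 were the lowest, as in 5.98% of the genes tested. The label estimate of *Me2* was -0.26 with all libraries and 0.084 without library 3.

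The other genes of the pathway were taken from a list of 45, including succinate dehydrogenase, lactate and amino acid exchange with the cycle, citrate and malate carriers and the transcriptional regulators of these genes. In the edgeR test 44 were tested and 0 were higher or lower between the labels at an adjusted p under 0.05 (0.0551% of all genes tested), with 1 at an unadjusted p under 0.05 (6.11%). Their median log2 fold change was 0.23, beside 0.26 for the 32 genes, and 37 of the 44 estimates were higher in the libraries labelled KO (47.3% of all genes tested). Without library 3 the median was 0.079, 35 estimates were higher (50.6% of all genes tested) and 7 of the 44 had an unadjusted p under 0.05 (11.8% of all genes tested). Library 3 was the lowest in 33 of the 44 (37.4% of the genes tested) and the highest in 7 (37.7%), and libraries 2, 4, 6 and 8 were the highest in 11 (4.41%). The coactivator gene *Ppargc1a* was at 28.7 CPM in library 3 against 125 to 172 CPM in the others and *Ldhb*, the heart form of lactate dehydrogenase, at 118 against 525 to 645 CPM. *Ldha*, the muscle form, was at 352 CPM in library 3, within the 312 to 457 CPM of the others.

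Some of these genes share sequence with others, which limits their counts where reads with several alignments were kept. Of the 50-base stretches in their transcripts, 22.9% in *Me1*, 16.0% in *Suclg2*, 11.0% in *Mpc1* and 10.9% in *Pdhb* occur unchanged in another gene, mostly the copies *Gm7049*, *Gm15163*, *Mpc1-ps* and *Gm6123*. *Gm6123* was at 0.618 CPM in library 8, where *Pdhb* was highest, and at 0.701 to 2.07 CPM elsewhere. *Mpc1-ps* was at 2.37 to 7.19 CPM and *Gm7049* and *Gm15163* at most at 2.24 CPM. On the opposite strand, 17.3% of the stretches of *Me1* lie in other genes, mostly *Gm48795*, 15.3% of those of *Mpc1*, mostly in *4930506C21Rik*, and 12.5% of those of *Pdha1*, mostly in *Map3k15*. The strand setting of the counting is not given in the sources used here.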

How the data were processed

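Left ventricular RNA was extracted with a miRNeasy kit, ribosomal RNA was depleted, and stranded libraries were sequenced as 50-base single-end reads. The authors deposited raw counts per Ensembl gene, without normalization, and the submitters' processing notes name STAR 2.7.2c, featureCounts 1.6.3, DESeq2 and GRCm38. All 9 columns were matched to samples by the library number in the titles. Symbols, coordinates and exon lengths came from GENCODE M21 (GRCm38), which held 52489 of 52636 identifiers. The genes and lists were chosen with earlier results of these data known.

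Counts were filtered with filterByExpr (16322 genes), TMM-normalized and tested with edgeR 4.0.16 (R 4.3.3; quasi-likelihood, robust) between the labels, with Benjamini-Hochberg adjustment over all genes tested. The standard error is the absolute log2 fold change over the square root of F. The script was tested on simulated data. No library was regrouped by *Vdac2*. No pair of libraries agreed within sampling noise (lowest chi-square per degree of freedom 7.35).

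The value in each library is given for *Pdha1*, *Pdhb*, *Pcx* and *Sucla2*, whose enzymes the main Results text of the study names. The study's antibody list and supplement name further enzymes, among them citrate synthase. Library values are also given for *Pdp2*. In each functional group they cover the genes with the largest and smallest ratio of highest to lowest library and the highest level per kilobase. Any gene with an adjusted p under 0.05 would have been added. The library values of *Cs*, *Idh1*, *Pdk3* and *Me2* were added after they were seen. Alternatives were DESeq2 1.42.0, RLE factors, no filter, the study's filters, unscaled totals with and without mitochondrially encoded genes and each library left out. Division by cardiomyocyte markers and the order over 8 libraries were added after the data were seen.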

Additional observations from a re-analysis of the deposited data

Results flagged for a closer look

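Within each label, each of the 32 genes and *Vdac2* was examined on the log2 scale for a library far from the others, by the gap to its nearest neighbour as a share of the range. Of 66 such groups, 25 had a library beyond the 95% limit of Dixon's test, where chance gives about 1 in 20, and in each of the 25 it was library 3 among the 5 libraries labelled WT. By the same measure, 34.1% of the 16274 genes tested with a count in every library labelled WT had a library beyond the limit, 17.4% with library 3 low and 15.9% with library 3 high, and 4.64% of 16313 did within the KO label. The genes share this library and are not independent of each other.

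Library 3 was the outlying low value in 24 of them. For pyruvate entry these were *Mpc1* at 7.85 CPM, *Mpc2* at 75.4 CPM, *Pdha1* at 491 CPM, *Pdhb* at 91.8 CPM, *Dlat* at 171 CPM, *Dld* at 157 CPM, *Pdhx* at 68.6 CPM, *Pdk2* at 25.6 CPM, *Pdk4* at 81.6 CPM and *Pdp1* at 41.0 CPM. In the cycle and the malic enzymes they were *Cs* at 359 CPM, *Idh2* at 317 CPM, *Idh3a* at 218 CPM, *Idh3b* at 209 CPM, *Idh3g* at 131 CPM, *Ogdh* at 423 CPM, *Dlst* at 216 CPM, *Suclg1* at 94.0 CPM, *Suclg2* at 24.9 CPM, *Sucla2* at 221 CPM, *Fh1* at 149.8 CPM, *Mdh1* at 649 CPM, *Mdh2* at 210.3 CPM and *Me3* at 20.6 CPM. It was the outlying high value in *Pdk3*, at 15.0 CPM. No library labelled KO was beyond the limit in any of the genes, and *Vdac2* was beyond it in neither label.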

How the results depend on the processing

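No gene of the 32 had an adjusted p under 0.05 under any alternative run, and 0 of the other pathway genes did. The number of genes called over all genes tested was 9, moved to 70 with DESeq2, and ranged from 5 (without library 1, 2 or 4, labelled WT) to 62 (without library 3) with 1 library left out. For *Vdac2*, the log2 fold change lay between -0.23 and 0.86 with 1 library left out and turned below 0 without library 6 or 8, labelled KO. The median log2 fold change of the 32 genes stayed above 0, from 0.073 (without library 3) to 0.34, against 0.26 with all libraries. With 1 library left out, the log2 fold change of *Mpc2* ran from -0.033 to 0.27, *Pdhx* from -0.0045 to 0.24, *Pdk2* from -0.072 to 0.26, *Pdk3* from -0.98 to 0.024, *Ogdh* from -0.030 to 0.30 and *Me2* from -0.42 to 0.084, each changing sign without library 3, and *Idh1* from -0.012 to 0.11, changing sign without library 9. The other 25 genes kept their sign in every fit. Library 3 was lowest in 26 to 29 genes under the other total-count and size-factor scalings and in 2 after division by the cardiomyocyte markers. Libraries 2, 4, 6 and 8 were the highest in 8 to 11 genes under those scalings, in 9 over the 8 libraries without library 3 (4.93% of the genes tested), and in 1 after that division (0.331%). The cause of these changes was not tested beyond the values given. No paired analysis was possible because the library numbers 1 to 9 do not repeat between the labels.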

Other observations

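A gene outside the 32 stood out after its values were seen. *Ogdhl*, a relative of *Ogdh* known mainly from brain, was at 37.7 CPM in library 8 and 10.7 CPM in library 1, against 0.636 to 3.28 CPM in the other 7 libraries. Library 8 is labelled KO and library 1 labelled WT, and their *Vdac2* was 421 and 20.2 CPM. *Ogdh* itself was at 1452 and 1130.3 CPM in these libraries, within its range over the others.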
